A study of Mus musculus with 8 samples.

Results

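The genes described here make, degrade and bind hyaluronan in skin, and they were chosen by name: the synthases *Has1*, *Has2* and *Has3*, the breakdown genes *Hyal1*, *Hyal2*, *Cemip* and *Cemip2*, the receptors *Cd44* and *Hmmr*, and the hyaluronan-binding proteoglycan *Vcan*. Of these 10 genes, 9 had at least 1 probe set that names them alone, 28 probe sets in all, out of 18193 genes with such a probe set on the array. The brightest probe set of each gene, by its mean over the 8 arrays, stands for the gene. *Hyal1* has no value here, because both of its probe sets also name *Naa80*. *Has3* and *Cemip* lay in the lowest 30% of genes by mean level and were left out of the test, so 7 of the 10 genes were tested among 12735.

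Hyaluronan is a long unbranched sugar polymer of the space between cells, where it holds water, and skin carries much of it in both dermis and epidermis. Synthases in the cell membrane build it from activated glucuronic acid and N-acetylglucosamine and push it out of the cell, while hyaluronidases and CEMIP-type proteins cut it into fragments. CD44 binds it at the cell surface, versican binds it in the matrix, and HMMR (also called RHAMM) binds it but is better known inside dividing cells, where it sits on the mitotic spindle.

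The samples were dorsal skin from female mice of the hairless strain Hos:HR-1, 21 weeks old at sampling. From 9 weeks of age they had eaten for 12 weeks either the purified diet AIN-93G alone (control diet, 4 arrays) or AIN-93G to which fish-scale collagen hydrolysate had been added at 2.0 g per 100 g (collagen diet, 4 arrays). All mice therefore shared the strain, the sex, the base diet and the length of feeding, and each array held RNA of 1 biological replicate out of 8 mice per diet. The comparison asks whether eating collagen peptides went with other levels of these genes in skin.

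The deposited log2 values ran from 5.34 to 14.27 and differed very little between arrays: the median gene had an SD of 11.8 millionths of a log2 unit over the 8 arrays. As deposited, these values show which diet was higher, and by how much relative to the replicate spread. For several genes the direction or the size changed under quantile normalization or median centring, as given below. Values this compressed give no fold change of RNA. Values per array are therefore given as deviations from the gene's own mean over the 8 arrays in millionths of a log2 unit, and differences, collagen minus control diet, also in SD units, that is, divided by the pooled SD of that gene within the groups. Whole skin was used, so fewer cells of a type and less RNA per cell cannot be told apart. All 7 basal keratinocyte, 6 suprabasal and 6 fibroblast markers examined lay above the level filter, as did all 6 skeletal muscle markers. Control replicate 4 and collagen replicate 1 stood apart with skeletal muscle scores of -1.39 and -1.33, against 0.110 to 0.812 in the other 6 arrays.

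No hyaluronan gene passed the test between the diets, and the pair with the smallest p values went in opposite directions. *Hmmr* was lower on the collagen diet, with a difference of -2.67 SD units, and *Cemip2* was higher, with 1.92, and in both the 4 arrays of one diet lay entirely on one side of the other 4. Groups that do not overlap were found in 3.31% of all genes tested. The synthases, *Hyal2*, *Cemip*, *Cd44* and *Vcan* had overlapping groups. Both separations depended on the scaling. After quantile normalization, and also after median centring, 0 of the 7 tested hyaluronan genes had groups that did not overlap. Likewise 0 had an unadjusted p below 0.05 in limma. With limma's moderated test and Benjamini-Hochberg adjustment, 0 of 12735 genes had an adjusted p below 0.05 (0% of those tested), and the smallest adjusted p among the hyaluronan genes was 0.690, for *Hmmr*. At an unadjusted p below 0.05 stood 682 genes, or 5.36% of those tested, and 2 of the 7 hyaluronan genes. Higher on the collagen diet were 3 of the 7 and lower 4, and their median was -0.30 SD units, while over all genes tested 54.5% were lower with a median of -0.08. Another scaling moved this split: after quantile normalization 5 of the 7 were higher and 65.7% of all genes were lower, and after median centring 3 of the 7 were higher and 86.5% of all genes were lower.

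**Figure D1:**
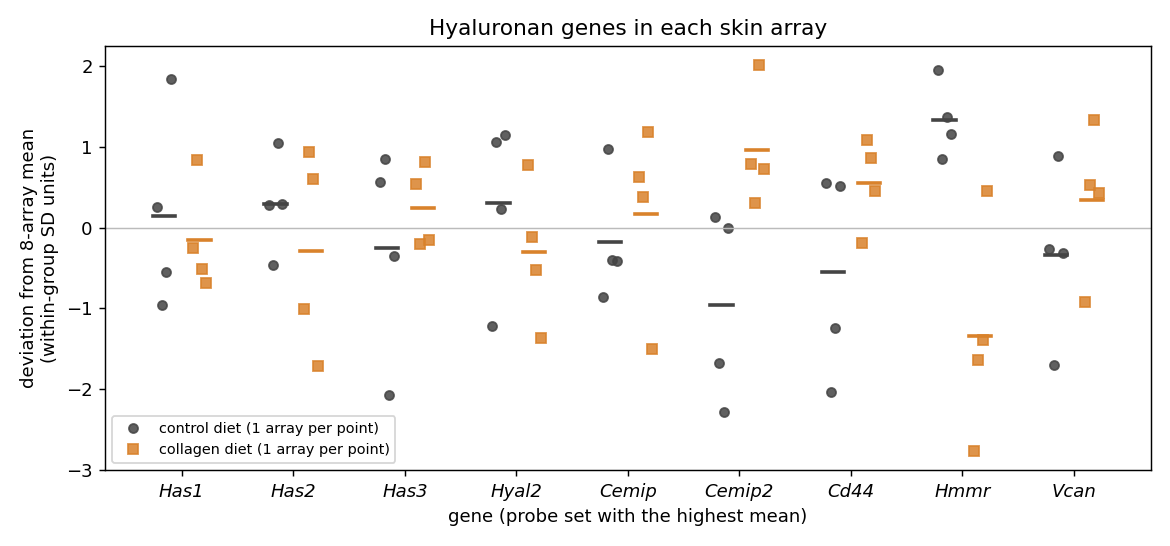
Deviation of each hyaluronan gene from its own mean over the 8 arrays (y axis, in pooled within-group SD units) by gene (x axis), with 1 point per array and a bar at the mean of the 4 arrays of each diet. On the deposited values the diets separate completely in *Hmmr* and *Cemip2* and overlap in the other 7 genes. Both separations are lost after quantile normalization and after median centring.

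**Figure D2:**
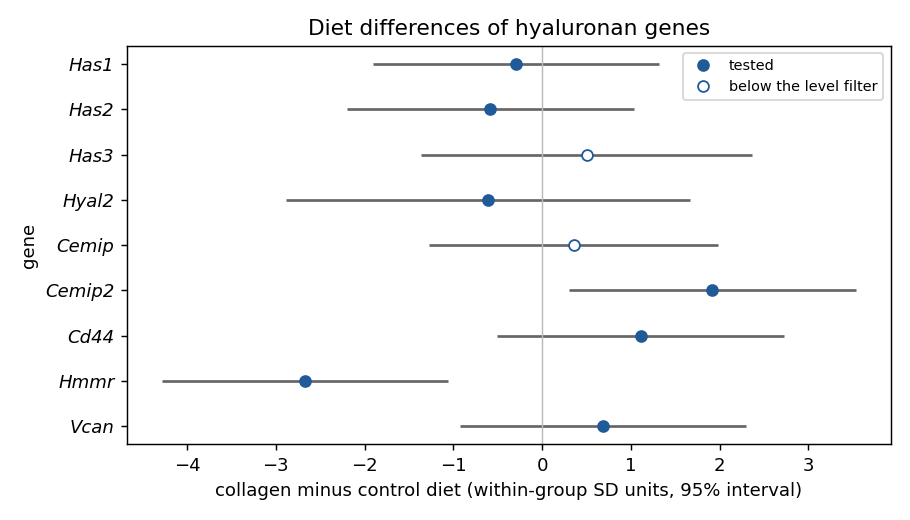
Difference between collagen and control diet (x axis, within-group SD units) for each gene (y axis), with its 95% interval from limma, 4 arrays per diet. The intervals of *Hmmr* (-4.29 to -1.06) and *Cemip2* (0.30 to 3.53) leave out 0 before any adjustment for the number of genes, and the other 7 include it; open points are the genes below the level filter.

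Among the synthases, *Has2*, the main synthase of dermal fibroblasts, differed little between the diets. By mean level *Has2* lay at percentile 30.4 of all genes, just above the filter that left out the lowest 30%. In its probe set 1449169_at (mean 6.70 on the deposited scale) the control arrays, replicates 1 to 4, deviated by 6.76, -11.2, 25.8 and 7.12 millionths. On the collagen diet the deviations were -24.5, 23.0, 14.8 and -41.9 millionths, so that the lowest pair of arrays and the array ranked just under the top were all of this diet. The difference was -14.3 ± 16.5 millionths (SE, n = 4 per diet), with a 95% interval of -53.7 to 25.2, an adjusted p of 0.999 in limma and an exact two-sided permutation p of 0.457. After quantile normalization its sign turned, to 0.08 SD units. The other *Has2* probe set, 1418678_at, differed by -0.03 SD units, and over the 8 arrays it followed the one used with a Pearson r of 0.72 (exact permutation p = 0.0449) and a Spearman rho of 0.62 (exact p = 0.115). Adjusted over the 19 such relations between probe sets of one gene, these p values were 0.171 and 0.364, and r was 0.64 without the 2 arrays farthest from the median.

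*Has1*, a synthase with low activity in most cells, varied far more from array to array than *Has2*: its SD over the 8 arrays exceeded that of 93.9% of all genes. Its 1 probe set, 1420590_at (mean 7.26), deviated in the control arrays by 70.7, -268, -152 and 516 millionths. The collagen-diet arrays gave -69.6, 237, -143 and -190 millionths. Control replicate 4 was the highest of all arrays and control replicate 2 the lowest, so both extremes lay within the control diet. The difference of -83.2 ± 189 millionths (SE, n = 4 per diet) had a 95% interval of -535 to 368, with an adjusted p of 0.999 in limma. It turned to 0.41 SD units without control replicate 4, and to the same value to 2 decimals without that array and collagen replicate 1 together.

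*Has3*, the synthase most linked to keratinocytes, was nearly flat. Its 1 probe set, 1420589_at (mean 6.43), stayed within -2.77 and 1.13 millionths of its mean on all 8 arrays, a spread below that of all but 6.29% of genes. As it lay below the level filter its difference, 0.50 SD units with an interval of -1.36 to 2.37, is given without a test. After quantile normalization the difference was -0.30 and after median centring -0.14.

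The breakdown genes split as well. *Hyal2* encodes a hyaluronidase anchored to the cell surface, and its 1 probe set, 1448679_at (mean 8.40), deviated by -4.22, 3.67, 0.815 and 3.97 millionths on the control diet. The collagen-diet arrays gave 2.72, -0.391, -1.81 and -4.75 millionths. These ranges lie almost on top of each other, and the difference was -2.12 ± 3.29 millionths (SE, n = 4 per diet; adjusted p = 0.999 in limma). Its sign turned after quantile normalization, to 0.26 SD units.

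*Cemip2* encodes a transmembrane protein related to CEMIP that has been described as a hyaluronidase of the cell surface, and its positive difference was the largest among the hyaluronan genes in SD units, though not in millionths, where *Cd44* and *Vcan* had larger ones. Its probe set 1451458_at (mean 8.02) deviated in the control arrays by 6.53, -84.6, -116 and -0.199 millionths. On the collagen diet it deviated by 39.7, 15.5, 102 and 36.9 millionths. All 4 collagen-diet arrays thus lay above all 4 control arrays, but control replicates 1 and 4 lay close under them while control replicates 2 and 3 lay far below. The groups failed to overlap in the higher direction in 0.777% of all genes tested. The difference was 96.9 ± 34.1 millionths (SE, n = 4 per diet), with an unadjusted p of 0.0265 and an adjusted p of 0.872 in limma. The exact two-sided permutation p was 0.0286, the smallest that 4 arrays against 4 can give.

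The further probe sets of *Cemip2* did not show the same difference. Probe set 1424711_at differed by 0.46 SD units and 1445918_at by -0.82, both with overlapping groups, and the mean of the 3 probe sets differed by 0.21 SD units (unadjusted p = 0.769 in limma). After quantile normalization the difference of the probe set used was 0.49 SD units, and after median centring 0.45. *Cemip*, which binds hyaluronan and is needed for its breakdown by skin fibroblasts, lay below the filter with its brightest probe set, 1421645_at (mean 6.49). That set stayed between -7.68 and 6.09 millionths of its mean and differed by 0.35 SD units, or -0.14 after median centring. Of its further sets 1429987_at differed by 0.12 SD units, with control replicate 1 at 654 millionths and the other 7 arrays between -315 and 105. The other, 1441478_at, had a mean of 5.91, also below the filter. It differed by 1.14 millionths, or 1.88 SD units, with overlapping groups and an exact two-sided permutation p of 0.0571.

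**Figure D3:**
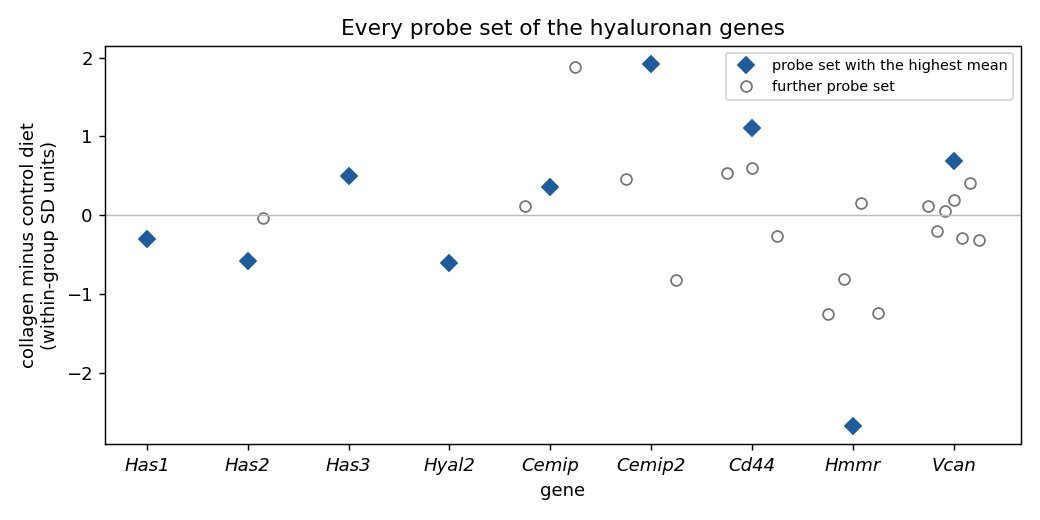
Difference between collagen and control diet (y axis, within-group SD units) of all 28 probe sets of the hyaluronan genes (x axis), with the probe set of the highest mean as a filled diamond. Of the 19 further probe sets, 13 have the sign of the one used. For *Hmmr* 3 of 4 do so, for *Cd44* 2 of 3, for *Vcan* 4 of 7 and for *Cemip2* 1 of 2. Most further sets have means below the filter level of 6.681, so their signs are a weak check. Among these are 1450156_a_at, 1450157_a_at and 1429871_at of *Hmmr* and 1445918_at of *Cemip2*.

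*Cd44*, the main surface receptor for hyaluronan on keratinocytes, fibroblasts and leukocytes, was higher on the collagen diet by 1.11 SD units with overlapping groups. Its probe set 1423760_at (mean 10.7) deviated on the control diet by 178, -656, -401 and 165 millionths. The collagen-diet arrays stood at -61.6, 352, 276 and 147 millionths. Control replicates 2 and 3 lay below all other arrays, as they did for *Cemip2*, while control replicates 1 and 4 lay within the range of the collagen diet. The difference was 357 ± 217 millionths (SE, n = 4 per diet), with an interval of -162 to 875 and an adjusted p of 0.999 in limma. Its spread over the arrays exceeded that of 95.1% of all genes, and it was shared by the 2 next brightest probe sets. These, 1434376_at and 1452483_a_at, followed the one used with Pearson r of 0.81 each (exact permutation p = 0.0122 and 0.00893, adjusted p = 0.0770 for both over 19 relations). Spearman's rho was 0.86 and 0.76 (exact p = 0.0107 and 0.0368), and r without the 2 farthest arrays was 0.67 and 0.86. They differed between the diets by 0.53 and 0.59 SD units, and the dimmest set, 1443265_at, by -0.27.

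*Cd44* and *Cemip2* were the pair of hyaluronan genes with the highest Pearson correlation over the 8 arrays, an r of 0.81 (exact permutation p = 0.0215) and a Spearman rho of 0.52 (exact p = 0.197). Over the 36 pairs compared the adjusted p values were 0.763 and 0.906. Without the 2 arrays whose *Cemip2* value was farthest from the median r was 0.09, so the relation rests on those arrays. As *Cemip2* separates by diet, the gap between the diets also enters this correlation. By Spearman's rho *Has1* with *Cd44* (rho = 0.67, exact p = 0.0831; Pearson r = 0.55, exact p = 0.145; r = 0.57 without the 2 farthest arrays) and *Has2* with *Vcan* (rho = 0.64, exact p = 0.0962; Pearson r = 0.45, exact p = 0.264; r = 0.89 without the 2 farthest arrays) stood higher, and their adjusted p values were 0.763 or more.

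*Hmmr* had the lowest p of the hyaluronan genes and was lower on the collagen diet. Its probe set 1425815_a_at (mean 7.15) deviated in the control arrays by 82.1, 36.1, 57.6 and 49.0 millionths. The collagen-diet arrays gave -116, -69.2, -58.5 and 19.2 millionths. Every control array exceeded every collagen-diet array, and collagen replicate 4 came closest to the control arrays. Groups that fail to overlap in the lower direction were found in 2.53% of all genes tested, and an unadjusted p below 0.05 in the lower direction in 4.15%. The difference was -112 ± 28.4 millionths (SE, n = 4 per diet), with a 95% interval of -180.3 to -44.6. limma gave an unadjusted p of 0.00609 and an adjusted p of 0.690, and the exact two-sided permutation p was 0.0286. Without collagen replicate 4 the difference was -5.59 SD units (adjusted p = 0.465 in limma).

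Of the further *Hmmr* probe sets 1427541_x_at differed by -1.26 SD units, 1429871_at by -1.24, 1450156_a_at by -0.81 and 1450157_a_at by 0.16, all with overlapping groups. The mean of all 5 sets differed by -3.37 SD units (unadjusted p = 0.00184, adjusted p = 0.444 in limma). The difference of the set used was -0.13 SD units after quantile normalization (unadjusted p = 0.849) and -0.98 after median centring (0.211), with the sign kept in both.

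Because *Hmmr* acts on the mitotic spindle, its values were set beside a list of 30 cell cycle genes that does not hold it. All 28 of these that were tested were lower on the collagen diet, with a median of -1.85 SD units, against 54.5% lower and a median of -0.08 over all genes. After median centring 28 of 28 were lower with a median of -0.45, when 86.5% of all genes were lower with a median of -0.15. After quantile normalization 21 were lower and 7 higher (median -0.22), when 65.7% of all genes were lower with a median of -0.14. In 10 of the 28 the diets did not overlap, against 2.53% of all genes in this direction. At an unadjusted p below 0.05 stood 18 of the 28, where 4.15% of all genes did so in this direction. The 18 became 0 after quantile normalization and 1 after median centring. None of the 28 passed the adjusted threshold. The list was drawn up with earlier results on these arrays known, so its direction is no independent evidence. The cell cycle score, the mean deviation of the list in SD units, was 1.30, 1.32, 1.35 and 0.340 in the control arrays and -0.971, -0.631, -1.81 and -0.902 in the collagen-diet arrays. Within a diet the order of the arrays differed from that of *Hmmr*: collagen replicate 3 had the lowest score, and collagen replicate 1 the lowest *Hmmr* value. As the arrays fall into separate clusters by diet, no correlation is given.

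*Plk1*, a kinase that drives mitosis, deviated by 22.3, 40.4, 41.6 and 33.0 millionths on the control diet and by -39.3, -29.2, -32.9 and -36.0 on the collagen diet, a difference of -9.83 SD units (adjusted p = 0.0510 in limma). *Cdk1*, the kinase of entry into mitosis, differed by -3.38 SD units, *Mki67*, which encodes the proliferation marker Ki-67, by -2.17 and *Top2a*, the topoisomerase that untangles replicated DNA, by -1.97, with adjusted p values of 0.545, 0.813 and 0.872. These 4 genes were also lower after both other scalings, with *Plk1* at -0.34 SD units after quantile normalization and -0.59 after median centring. Of all genes 65.7% and 86.5% were lower under these scalings. The 7 markers of basal keratinocytes, among which epidermal cells divide, gave a median of 0.11 SD units. Their score averaged -0.05 ± 0.43 (SD, n = 4) over the control arrays and 0.05 ± 0.57 (SD, n = 4) over the collagen-diet arrays. Their part in the *Hmmr* difference was not tested.

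**Figure D4:**
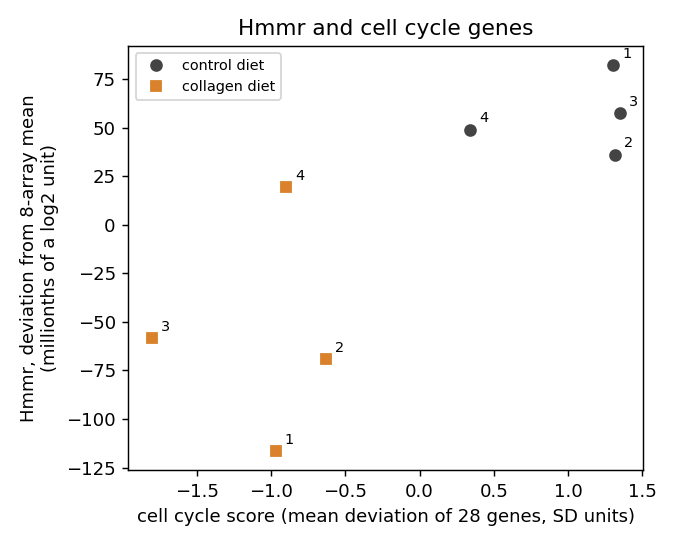
Deviation of *Hmmr* from its mean over the 8 arrays (y axis, millionths of a log2 unit) against the cell cycle score (x axis, mean deviation of 28 genes in SD units), 1 point per array with its replicate number. All 4 collagen-diet arrays lie lower on both axes than all 4 control arrays.

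The start of *Hmmr* is shown because promoters of many cell cycle genes share a pair of short elements, the CCAAT box, which NF-Y binds, and the cell cycle genes homology region (CHR), which binds complexes that hold such genes silent outside division. The 250 bases before its start site in RefSeq (GRCm38.p6, chr11:40733438-40733687, minus strand) follow, with CCAAT boxes in capitals, all of them as ATTGG, the reverse complement.
Hmmr: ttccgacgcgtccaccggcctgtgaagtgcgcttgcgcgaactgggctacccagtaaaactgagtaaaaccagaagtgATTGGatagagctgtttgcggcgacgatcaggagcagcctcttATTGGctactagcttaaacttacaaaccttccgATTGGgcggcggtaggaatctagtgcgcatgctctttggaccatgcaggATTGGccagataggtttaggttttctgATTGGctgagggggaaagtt
It holds 5 CCAAT boxes, and at least 5 were found in 0.271% of 32851 RefSeq promoter windows of 250 bases before and 50 after a start site. The CHR letters TTTGAA begin at position 9 after the *Hmmr* start site. They occur on either strand, as TTTGAA or TTCAAA, in 17.9% of all windows, in 18 of the 25 windows of cell cycle genes in the table, and in 2 of the 7 hyaluronan genes it holds. No CHR overlaps a CCAAT box in the *Hmmr* window.

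Windows of 30 bases around the CHR nearest the start site, with its letters in capitals, show *Hmmr* beside the 4 cell cycle genes named above and beside *Has1*, the other hyaluronan gene with a match.
Hmmr: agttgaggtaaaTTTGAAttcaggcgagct
Plk1: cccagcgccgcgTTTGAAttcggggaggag
Cdk1: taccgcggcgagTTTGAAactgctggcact
Top2a: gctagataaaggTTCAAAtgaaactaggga
Mki67: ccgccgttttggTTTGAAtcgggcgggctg
Has1: aatgtgttggtcTTCAAAtggcccccctcc
These lie on chr11:40733412-40733441 (*Hmmr*, minus strand), chr7:122159453-122159482 (*Plk1*, plus), chr10:69352910-69352939 (*Cdk1*, minus), chr11:99024195-99024224 (*Top2a*, minus), chr7:135716460-135716489 (*Mki67*, minus) and chr17:17855216-17855245 (*Has1*, minus), all in GRCm38.p6. The element begins at position 31 in *Plk1* and at positions -15 in *Cdk1*, -23 in *Top2a*, -98 in *Mki67* and -45 in *Has1*, counted from the start site. A match in these letters is a description of the window and not a bound site.

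*Vcan* encodes versican, the large proteoglycan that binds hyaluronan in dermis and around the hair follicle, and it varied most from array to array among the hyaluronan genes, above 96.0% of all genes. Its probe set 1427256_at (mean 8.53) deviated on the control diet by -125, -821, 432 and -148 millionths. On the collagen diet it deviated by -443, 254, 645 and 207 millionths. Control replicate 2 and collagen replicate 1 were the lowest arrays and replicate 3 was the highest of each diet, so the diets overlapped over most of the range. The difference was 331 ± 325 millionths (SE, n = 4 per diet), with an interval of -447 to 1110 and an adjusted p of 0.999 in limma. The next brightest probe sets, 1421694_a_at and 1427257_at, differed by 0.12 and -0.20 SD units. They followed the one used over the arrays with Pearson r of 0.88 and 0.75 (exact permutation p = 0.00424 and 0.0334, adjusted p = 0.0770 and 0.159 over 19 relations). Spearman's rho was 0.98 and 0.76 (exact p = 0.000397 and 0.0368, adjusted p = 0.00754 and 0.175). Without the 2 farthest arrays r was 0.95 and 0.79. The 5 dimmer sets differed by -0.32 to 0.41 SD units.

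The array pattern of *Vcan* followed that of 6 fibroblast markers, *Col1a1*, *Col1a2*, *Col3a1*, *Dcn*, *Lum* and *Pdgfra*. Their score was -0.793, -0.401, 0.844 and -0.257 in the control arrays and -0.775, -0.137, 1.47 and 0.0532 in the collagen-diet arrays. Collagen replicate 3 and control replicate 3 thus headed both measures. The Pearson r was 0.79 (exact permutation p = 0.0188) and the Spearman rho 0.81 (exact p = 0.0218), and r was 0.87 without the 2 arrays farthest from the *Vcan* median. Adjusted over the 99 relations between a hyaluronan gene and a list of cell type markers, the p values were 0.622 and 0.606, so the relation did not pass.

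**Figure D5:**
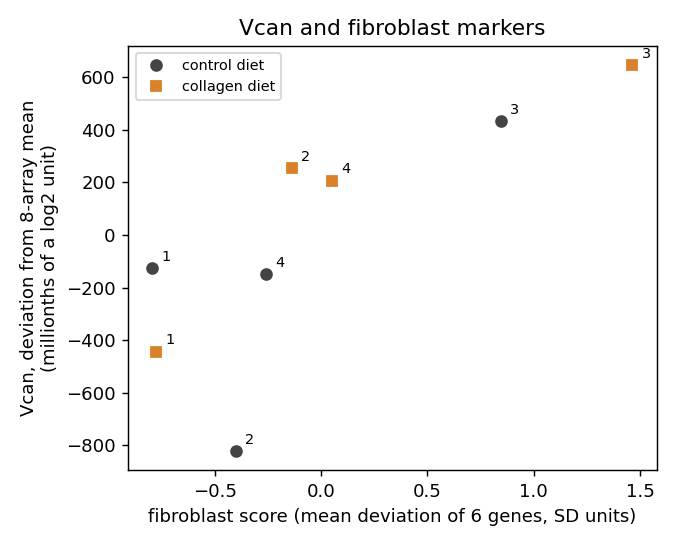
Deviation of *Vcan* from its mean over the 8 arrays (y axis, millionths of a log2 unit) against the fibroblast score (x axis, mean deviation of 6 marker genes in SD units), 1 point per array with its replicate number. Replicate 3 of each diet is highest on both axes, and the diets are mixed along the trend.

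The other relations with marker lists that had an exact p below 0.05 by either measure follow, and none passed over the 99. *Has3* followed the suprabasal keratinocyte markers (Pearson r = 0.80, exact permutation p = 0.00804, adjusted p = 0.554; Spearman rho = 0.76, exact p = 0.0368; r = 0.75 without the 2 farthest arrays). *Hyal2* ran against the skeletal muscle markers (Pearson r = -0.72, exact permutation p = 0.0432, adjusted p = 0.712; Spearman rho = -0.81, exact p = 0.0218; r = -0.76 without the 2 farthest arrays). It followed the markers of T and NK cells (Pearson r = 0.81, exact permutation p = 0.0112, adjusted p = 0.554; Spearman rho = 0.76, exact p = 0.0368; r = 0.68 without the 2 farthest arrays). It also followed the adipocyte markers (Pearson r = 0.76, exact permutation p = 0.0352, adjusted p = 0.712; Spearman rho = 0.76, exact p = 0.0368; r = 0.58 without the 2 farthest arrays). *Cemip2* followed the smooth muscle markers by Pearson correlation alone (r = 0.73, exact permutation p = 0.0421, adjusted p = 0.712; Spearman rho = 0.60, exact p = 0.132; r = 0.43 without the 2 farthest arrays). The gap between the diets in *Cemip2* enters that correlation. *Vcan* followed the skeletal muscle markers by rank alone (Spearman rho = 0.79, exact p = 0.0279, adjusted p = 0.606; Pearson r = 0.54, exact permutation p = 0.163; r = 0.78 without the 2 farthest arrays).

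The genes whose pattern was most like that of each hyaluronan gene were taken as the 3 with the highest Pearson correlation over the 8 arrays among all genes tested, as a description only. For *Vcan* they were *Lgals1*, which encodes galectin-1, *Col6a3*, a chain of collagen VI, and *Mlxipl* (r = 0.96, 0.95 and 0.95). For *Has1* they were *Fosl1*, a member of the AP-1 transcription factor family (r = 0.99), *Zdhhc18* (0.98) and *Srprb* (0.95). For *Has2* they were *Irf4* (r = 0.95), *Wdfy1* (0.93) and *Gfpt2* (0.93), which encodes an enzyme of the route to the N-acetylglucosamine of hyaluronan. *Cd44* was most like *Desi2*, *St3gal1* and *Ywhag* (r = 0.95, 0.95 and 0.94). *Cemip2* was most like *Cul2*, *Gng4* and *Tmem120b* (0.95, 0.94 and 0.93), where the gap between the diets enters the correlation. *Hmmr* was most like *Zfp655*, *Pold2*, a subunit of DNA polymerase delta, and *Kat5*, an acetyltransferase (r = 0.99, 0.96 and 0.96), where the gap between the diets enters the correlation. *Hyal2* was most like *Dock6*, *Ube2q1* and the cadherin gene *Cdh3* (r = 0.98, 0.96 and 0.95). *Has3* was most like *Ces2f*, *Dnajc16* and the keratin gene *Krt78* (0.92, 0.90 and 0.90). *Cemip* was most like *1600012P17Rik*, *Emilin3* and *Dnhd1* (0.98, 0.98 and 0.97).

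The wider hyaluronan pathway showed as little. Of 48 further genes listed for it, 46 had a probe set of their own, 30 were tested, 14 were higher and 16 lower on the collagen diet, and 0 passed over all genes in limma, with 1 at an unadjusted p below 0.05 in the higher direction, where 1.21% of all genes stood. Their median was -0.09 SD units. After quantile normalization 17 of the 30 were lower, when 65.7% of all genes were, and after median centring 28, when 86.5% of all genes were. The 1 gene was *Bcan* (1441899_x_at), brevican, a hyaluronan-binding proteoglycan best known from brain. It deviated by -26.2, -6.27, -10.1 and 0.891 millionths on the control diet and by 24.5, 13.3, 2.53 and 1.25 on the collagen diet. All 4 collagen-diet arrays were higher, the lowest by less than a millionth. The difference was 1.87 SD units (unadjusted p = 0.0302, adjusted p = 0.895 in limma), and it was 0.04 after quantile normalization and -0.01 after median centring.

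The 7 tested genes that supply the sugar precursors were lower in 6 cases with a median of -0.48 SD units, none at an unadjusted p below 0.05. After quantile normalization 4 of these were lower, when 65.7% of all genes were, and after median centring 6, when 86.5% were. Without control replicate 4 and collagen replicate 1, the arrays low in muscle genes, 2 were lower. *Ugdh*, which makes the glucuronic acid donor, differed by -0.30 SD units, *Uap1*, which makes the N-acetylglucosamine donor, by -0.53 and *Gfpt2* by -0.68. *Gfpt2* deviated by -24.4, -318, 476 and 585 millionths in the control arrays and by -564, 285, 397 and -837 in the collagen-diet arrays. As with *Has2*, collagen replicates 1 and 4 were the lowest arrays.

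Among the 10 tested genes of other receptors and binding proteins, 5 were higher and 5 lower, and the median was -0.02 SD units. After quantile normalization the split was again 5 and 5, and after median centring 0 were higher and 10 lower. It was 1 higher and 9 lower without control replicate 1, and likewise without collagen replicate 4. They ran from *Icam1*, an adhesion molecule that has also been described as a hyaluronan receptor, at -1.16 to *Habp2* at 0.35. *Lyve1*, the hyaluronan receptor of lymphatic vessels, differed by -0.09 and *Tlr4*, an innate immune receptor, by 0.16. The matrix group held hyaluronan-binding proteoglycans, link proteins, inter-alpha-trypsin inhibitor chains and the proteases of versican. Of its genes 7 were higher and 4 lower, around a median of 0.23 SD units. They were 4 higher and 7 lower after quantile normalization and 1 higher and 10 lower after median centring, beside the same shares of all genes. In this group *Adamts5*, a versican-cutting protease, differed by -0.73 SD units. *Tnfaip6*, which transfers inter-alpha-trypsin inhibitor chains to hyaluronan, differed by 0.20.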

How the data were processed

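Each of the 8 arrays is 1 sample, placed in its diet group by its title. Per the labels' protocols, 200 ng of total RNA from powdered skin was amplified from the 3' end and labelled with biotin. The deposited values appear to be log2, judged from their range. R 2.7.2 is named in the submitters' processing notes; for the authors' summarization and normalization, no method is given in the sources used here. Quartiles differed between arrays by at most 0.00170 log2 units. That gap is far above the median gene SD of 11.8 millionths. It also exceeds the largest difference of a hyaluronan gene, 357 millionths for *Cd44*, and other scalings moved the results. No pair of arrays shared more than 0.0155% of values, and precision rests on 4 arrays per diet alone.

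After 64 control probe sets were removed, the 34945 probe sets whose platform annotation (which can be old) names 1 gene were used. Each gene took the probe set with the highest mean, and the lowest 30% of genes were left out. The diets were compared with limma 3.58.1 under R 4.3.3, by a linear model per gene with variances moderated along an intensity trend. Tests were two-sided, with Benjamini-Hochberg adjustment over all genes and a threshold of 0.05. The fit was also run on simulated data, whose planted shifts exceeded the difference of every hyaluronan gene in SD units. That run therefore says nothing about differences of the size reported here. Genes left out by the filter take their size from the same fit on all genes. For probe sets other than the one used, differences come from a fit on all probe sets. Exact tests permute arrays.

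The members and lists were chosen with earlier results of these data known, and the promoter motifs after the *Hmmr* values were seen. Named are all members, pathway genes with an unadjusted p below 0.05 or otherwise the 3 with the smallest p, the 3 genes most like each member, and *Plk1*, *Cdk1*, *Top2a* and *Mki67* (*Ccnb1* was not tested); other pathway genes named were picked for their role after their values were seen. Promoter sequences are RefSeq's (GRCm38.p6) and cover 7 of the 10 members. The labels do not tie arrays to cages or name batches. Alternatives were other scalings, filters, probe set rules, no trend, a replicate block and leaving out arrays.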

Additional observations from a re-analysis of the deposited data

Results flagged for a closer look

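In 4 of 56 groups of 4 arrays (28 probe sets, 2 diets) 1 array lay far from the other 3, where chance gives about 1 in 20. All 4 were probe sets other than the one used for their gene. In *Cemip* probe set 1429987_at, control replicate 1 deviated by 654 millionths of a log2 unit against -315 to -169 in the other control arrays. In *Hmmr* probe set 1427541_x_at, collagen replicate 3 stood at -6.65 against -1.84 to -1.17. In *Hmmr* probe set 1450156_a_at, control replicate 2 stood at 51.8 against -8.38 to 1.07. In *Vcan* probe set 1433044_at, collagen replicate 3 stood at -7.84 against 0.988 to 2.53.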

How the results depend on the processing

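The count of genes called over the whole array was 0, and it was 1 with the lowest 50% of genes left out, 1 at an adjusted p below 0.10, and between 0 and 1 on leaving out each array (1 without control replicate 1). The number of hyaluronan genes with an unadjusted p below 0.05 was 2. It was 0 after quantile normalization and after median centring, 1 with the lowest 50% left out (where *Hmmr* and the synthases were not tested), 1 with the mean of all probe sets, and between 1 and 2 on leaving out each array. It was 1 without control replicate 2, without control replicate 3 and without collagen replicate 3, the gene lost being *Cemip2*. The number whose groups did not overlap was also 2, and was 0 after both other scalings. It was 1 with the lowest 50% left out and 1 with the mean of all probe sets. It stayed 2 on leaving out each array, which is no check of these genes. Removing an array cannot make separated groups overlap.

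Among the tested genes, reversed in sign were *Has2* (0.0798 SD units) and *Hyal2* (0.26) after quantile normalization, and *Has1* (0.41) when control replicate 4 was left out. Leaving it out together with collagen replicate 1, the other array with a low muscle score, also gave 0.41, a setting chosen after seeing the data. Of the 2 genes below the level filter, *Has3* (0.50) changed sign after quantile normalization (-0.30), after median centring (-0.14) and without control replicate 3 (-0.19), and *Cemip* (0.35) after median centring (-0.14). The difference of *Cemip* was 1.37 without collagen replicate 4. On leaving out each array the differences in SD units ranged from -0.71 to 0.41 for *Has1*, -1.12 to -0.13 for *Has2*, -0.19 to 0.93 for *Has3*, -1.47 to -0.27 for *Hyal2*, 0.0156 to 1.37 for *Cemip*, 1.63 to 2.43 for *Cemip2*, 0.78 to 1.58 for *Cd44*, -5.59 to -2.35 for *Hmmr* and 0.28 to 1.25 for *Vcan*. The cause of these changes was not tested.

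With the replicate number as a replicate block, 0 genes were called, 1 hyaluronan gene had an unadjusted p below 0.05, and *Hmmr* and *Cemip2* differed by -2.30 and 1.59 SD units. Arrays with the same number had correlations of deviations of 0.00448, -0.0184, 0.185 and -0.0717. These show no clear pairing by number. They cannot tell whether equal numbers share a cage or batch, which the labels do not give. All other member differences, 134 of 139, kept their direction or, for *Has3* and *Cemip* and where a setting left a gene untested, moved by less than 1 SD unit, sign changes included. No hyaluronan gene passed the adjusted threshold in any setting, so for tested genes only the sign was compared. The tally therefore does not show that sizes held. It includes *Hmmr* at -0.13 and *Cemip2* at 0.49 SD units after quantile normalization, against -2.67 and 1.92 on the deposited values.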
